A study of Bos taurus with 27 samples.

Results

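Among 27 day-15 cattle embryos, 41 genes stood at 2 times their usual level or more in the same pair of short omega-6 embryos, numbers 22 and 25. The genes were chosen by these very values. For each gene, CPM (the file's counts scaled to a total of 1000000) was set against its median over the other 25 embryos. Genes with a median of 2 to 1000 CPM and a slope of log2(CPM + 1) on log2(size number) of less than 0.35 in absolute size over all 27 embryos were eligible, and ENSBTAG00000018073 was left out. Of 19994 gene identifiers, 9829 had such a median and 9513 were eligible. The 41 genes kept, called members here, are therefore 0.431% of the eligible genes. Levels in embryos 22 and 25 are given as a description, with no test.

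The study examined effects of a maternal omega-3 or omega-6 diet on embryos collected on day 15 of pregnancy, with 1 RNA library per whole embryo. The groups were 6 long omega-3 embryos with size numbers of 10.5 to 20.3, 10 short omega-3 embryos of 0.4 to 9.5, and 11 short omega-6 embryos of 1.4 to 7.7. The labels name neither the unit of the size number nor the dams, so embryos may share a dam. Embryo 22 has size number 3.7 and the letter m in its title, and embryo 25 has size number 1.4 and the letter f. The other 9 short omega-6 embryos ran from 2.1 to 7.7.

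The cattle embryo elongates before it attaches, passing from a sphere through ovoid and tubular forms to a long filament. Most of that length is trophoblast, the outer layer that later forms the fetal part of the placenta and that secretes interferon tau, the signal by which the mother recognises the pregnancy. Omega-3 and omega-6 fatty acids are essential polyunsaturated fats that enter membranes and are the precursors of prostaglandins and related lipids. RNA of a whole embryo mixes trophoblast, endoderm and the embryonic disc, so more cells of a type and more RNA per cell cannot be told apart in what follows. The files pair no identifier with a gene name, and 0 identifiers matched the RefSeq table used here. Members are therefore described by identifier, rank and level, their functions are not given, and the labelled tissue was not checked against its marker genes.

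Both libraries stood apart from the rest before any member was considered. Total counts were unremarkable, at 24905064 in embryo 22 and 26654396 in embryo 25 against 17931620 to 29868584 in the other 25. The scaling factors from the trimmed mean of M-values (TMM, which estimates a scale from genes that move little) were 0.763 and 0.896, below the 0.961 to 1.106 of all others. Counts were found for 13294 genes in embryo 22 and 14223 in embryo 25, against 13745 to 14613 in the rest. The median eligible gene was shifted by -0.42 in embryo 22 and by -0.22 in embryo 25 on the log2 scale, and 1616 eligible genes were at 0.5 times their median or less in both. Members, chosen for high values in both libraries, lie on the other side of this shift by the rule.

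Embryo 22 was at 2 times the median or more for 378 eligible genes, 3.97% of them, and embryo 25 for 155, or 1.63%. The 41 members are 10.8% of the first list and 26.4% of the second. Across members the ratio to the median ran from 2.02 to 6.65 in embryo 22, with a median of 2.40, and from 2.002 to 7.55 in embryo 25, with a median of 2.15. Most members sat close above the limit. The lower ratio of a member (the smaller of the pair) had a median of 2.10 and a lower quartile of 2.03, and only ENSBTAG00000037651 reached 3 in both embryos. At the limit itself, the members just inside had lower ratios of 2.002, 2.004 and 2.008, while the eligible genes just outside had 1.996, 1.991 and 1.989, so the list ends within a continuous range.

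**Figure D1:**
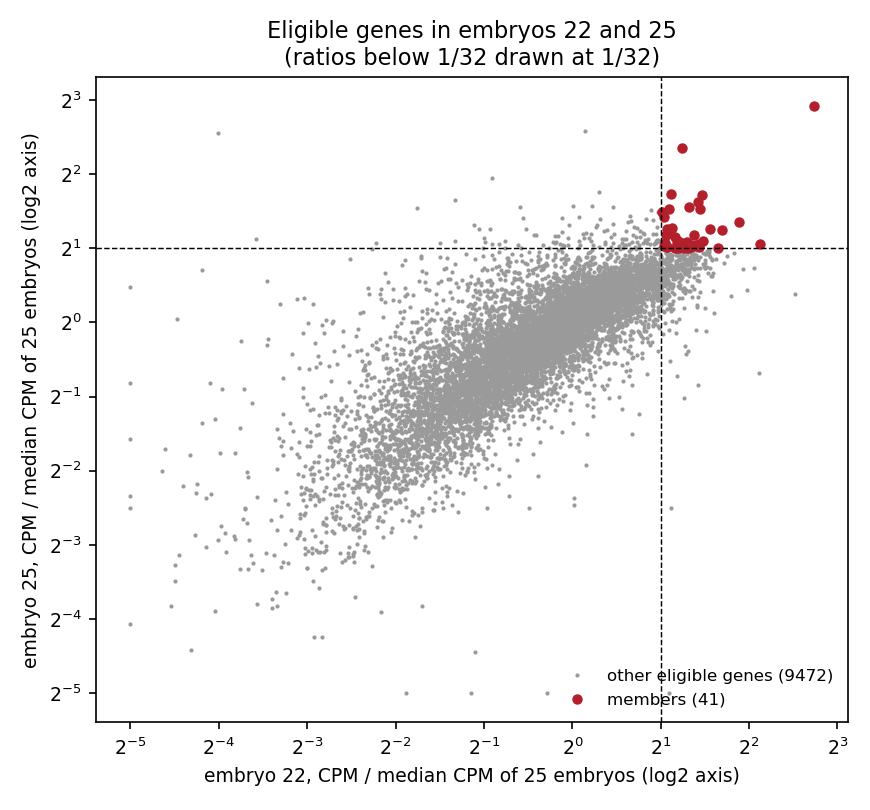
Each point is an eligible gene, placed by its CPM in embryo 22 (horizontal) and embryo 25 (vertical) divided by its median over the 25 other embryos, on log2 axes. The 41 members (red) lie beyond the dashed lines at 2, most of them close to the corner, while the bulk of the 9513 eligible genes lies below 1 on both axes.

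The median log2 ratio of the members was 1.26 in embryo 22 and 1.10 in embryo 25. Set against the median eligible gene of the same library, these gaps were 1.68 and 1.32. The counts behind them were large, from 153 to 66332 reads per member in embryo 22 and from 205 to 67339 in embryo 25. Together the members took 1.16% of all counts in embryo 22 and 1.07% in embryo 25, against 0.39% to 0.683% in the other embryos. The higher share in both embryos follows from the rule.

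The embryos did not favour the same members equally. Of the 41, 24 had the higher ratio in embryo 22 and 17 in embryo 25. The 24 had a median level of 64.0 CPM over the other embryos and the 17 a median of 10.8 CPM. CPM is not corrected for gene length, so a higher CPM of 1 gene than of another does not show more transcripts. By level class, 13 members came from the 2252 eligible genes with a median of 2 to 10 CPM, 20 from the 5705 genes of 10 to 100 CPM, and 8 from the 1556 genes of 100 to 1000 CPM.

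For 35 of the 41 members both embryos exceeded every one of the 25 others. Among all eligible genes that held for 10.3%, and since the rule used these values nothing is read from the difference. For the other 6 members at least 1 other embryo reached the lower of embryos 22 and 25. No other embryo reached 2 times the median for 33 members, and none reached 1.5 times for 16.

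The member with the highest ratios, ENSBTAG00000037651, differed from nearly all the rest in where else it was high. It stood at 138 CPM in embryo 22 and 156 CPM in embryo 25. The long omega-3 embryos ran from 20.7 through a median of 64.0 to 134 CPM, the short omega-3 embryos from 10.1 through 18.4 to 42.0 CPM, and the other short omega-6 embryos from 10.7 through 14.3 to 76.6 CPM. Its median over the 25 was 20.7 CPM, which gave ratios of 6.65 and 7.55. Besides embryos 22 and 25, 7 embryos reached 2 times that median: the long omega-3 embryos 01, 06 and 10 at 134, 95.8 and 91.8 CPM, the short omega-3 embryo 02 at 42.0 CPM, and the short omega-6 embryos 28, 26 and 21 at 76.6, 65.3 and 54.8 CPM. These 7 embryos had size numbers from 2.5 to 20.3, and embryo 14, the smallest, was at 15.3 CPM. Across the 25 the gene rose with size, with a slope of 0.43 in log2(CPM + 1) per doubling of the size number. That slope is over the limit of the slope filter. With embryos 22 and 25 included, as in the rule, the slope was 0.28. The gene thus met the filter only with these embryos included.

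ENSBTAG00000043571, second by the lower ratio, showed the commoner pattern. It stood at 2120 CPM in embryo 22 and 2526 CPM in embryo 25. Levels ran from 623 through a median of 710 to 836 CPM in long omega-3 embryos, from 502 through 823 to 1614 CPM in short omega-3 embryos, and from 518 through 999 to 1233 CPM in the other short omega-6 embryos. Embryos 22 and 25 lay above all others, and the next in order were the small embryos 14 at 1614 CPM and 05 at 1386 CPM. The ratios were 2.76 and 3.29.

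ENSBTAG00000043568 had the highest median CPM of the members, 908, with no correction for length. It was at 2663 CPM in embryo 22 and 2178 CPM in embryo 25, ratios of 2.93 and 2.40. Long omega-3 embryos ran from 657 through 777 to 1021 CPM, short omega-3 embryos from 601 through 885 to 1373 CPM, and the other short omega-6 embryos from 659 through 937 to 1436 CPM. The 3 groups overlapped widely, with embryos 22 and 25 above all of them.

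**Figure D2:**
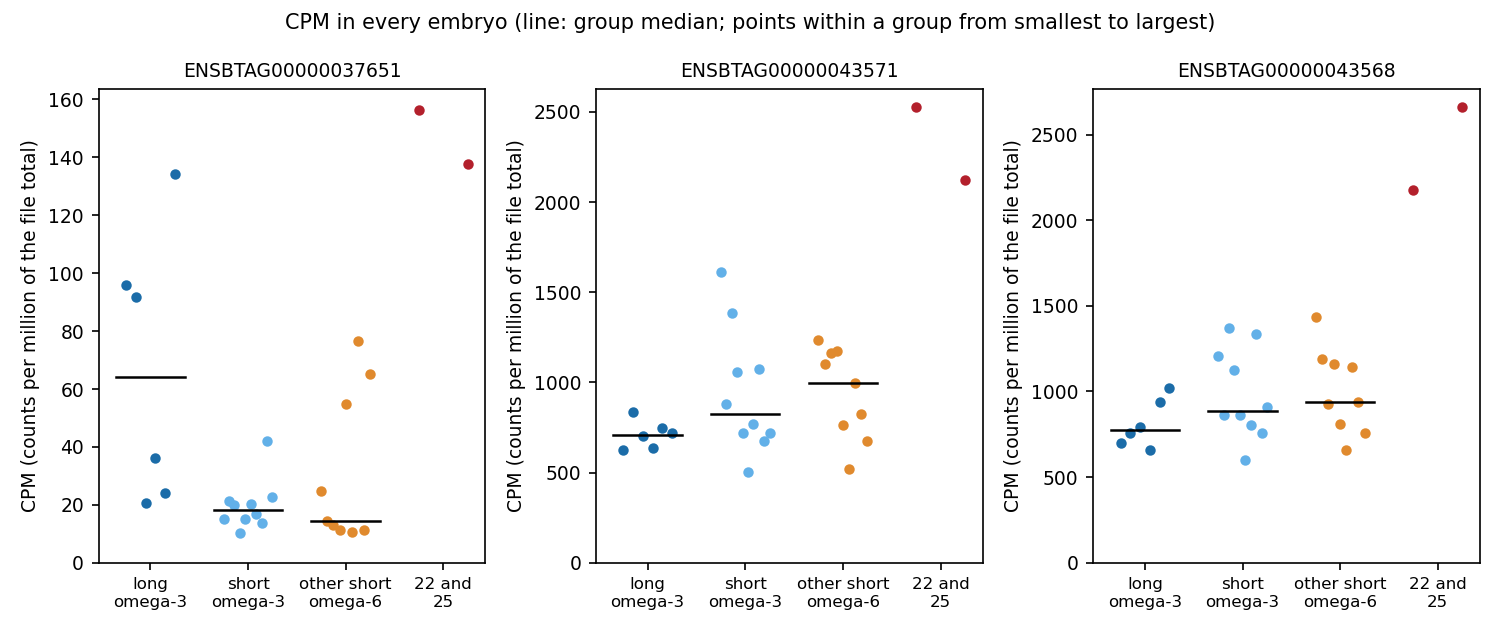
CPM of 3 members in each embryo (points) by group, with a line at each group's median and, within a group, embryos from smallest to largest. ENSBTAG00000037651 reaches 134 CPM in a long omega-3 embryo, near embryos 22 and 25, whereas in the other 2 genes both red points lie above every other embryo.

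The next example was chosen after its values were seen, as the member that varied least among the 25. ENSBTAG00000012177 was at 418 CPM in embryo 22 and 338 CPM in embryo 25. Long omega-3 embryos lay at 138, 152 and 180 CPM (lowest, median and highest), short omega-3 embryos at 148, 166 and 219 CPM, and the other short omega-6 embryos at 144, 172 and 212 CPM. Its highest other embryo, again number 14, was at 1.33 times the median. The rule and the choice of this example fix a gap between that embryo and embryo 25.

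A second group of embryos shared part of the rise. The highest of the 25 other embryos was 14 for 18 members, 20 for 7, 30 for 7 and 05 for 3, which leaves 6 members with another embryo on top. All 4 are small, with size numbers of 0.4, 2.1, 2.5 and 2.1. Embryos 14 and 05 are short omega-3 and 20 and 30 are short omega-6, so both diets are among them.

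Embryo 14, the smallest of all, came closest. It reached 2 times the median for 5 members, or 12.2% of the 41, against 2.65% of all eligible genes. They were chosen after their values were seen: ENSBTAG00000043571, ENSBTAG00000018598, ENSBTAG00000014995, ENSBTAG00000006777 and ENSBTAG00000008833, at 2.10, 3.08, 2.29, 2.16 and 2.16 times the median. With TMM scaling, under which embryo 14 has the highest factor (1.106), no other embryo reached 2 times the median for 10% of the members. At 1.5 times the median embryo 14 held 19 members, 46.3% against 8.79% of eligible genes.

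The other 3 embryos shared fewer members. Embryo 20 was at 1.5 times the median for 12 members (29.3% against 3.7% of eligible genes), embryo 05 for 9 (22% against 3.29%) and embryo 30 for 7 (17.1% against 1.96%). Embryo 13, with size number 1.3 and so smaller than embryo 25, reached 1.5 times the median for 0 members. Even so, 28 of the 41 were above their median there, and the median log2 ratio of the members was 0.18. How far the shared rise goes with size was not tested.

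ENSBTAG00000018598, also picked out after its values were seen, was the member shared most often apart from ENSBTAG00000037651. It was at 6.14 CPM in embryo 22 and 13.3 CPM in embryo 25, with 153 and 354 reads. Embryos 14, 24, 30, 19 and 15 were at 7.98, 6.84, 6.19, 5.71 and 5.22 CPM, against a median of 2.60 CPM over the 25. Embryo 22 thus lay inside the range of the others, and embryo 25 above it.

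**Figure D3:**
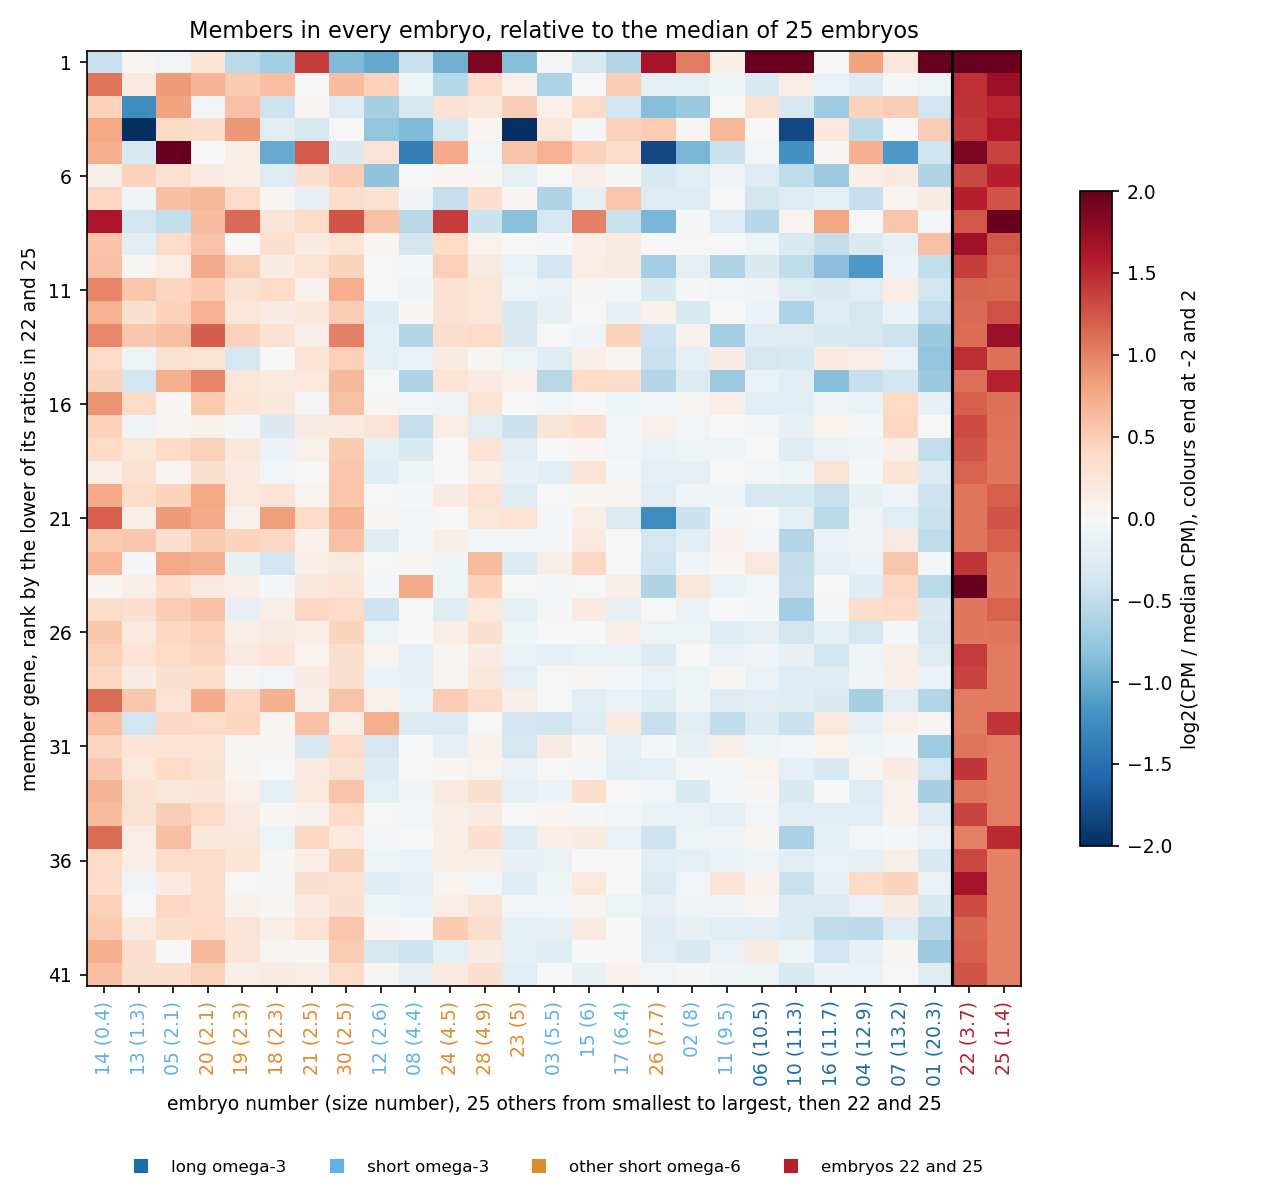
Each row is a member, ranked by the lower of its ratios, and each column an embryo, with the 25 others from smallest to largest and then embryos 22 and 25. Colour gives log2 of CPM over the median of the 25, with the scale ending at 2 in either direction. The left, small end is mostly red and the right end mostly blue, and row 1 (ENSBTAG00000037651) runs the other way.

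The members' level fell with size across the other 25 embryos. These embryos gave the rule its medians and most points of its slope filter, which bounds a slope's size in either direction. The limit of 2 times the median is not neutral to direction. Embryos 22 and 25, with size numbers 3.7 and 1.4, are smaller than the median of the 25, which is 5. The limit therefore favours genes that fall with size, and part of the fall described here is built in. How large that part is was not tested. A score was taken for each embryo as the median log2 ratio over the 41 members. It was 0.54 in embryo 14, 0.44 in embryo 30, 0.43 in embryo 20 and 0.38 in embryo 05, and fell to -0.33 in the largest, embryo 01. All 8 embryos with a size number of 2.5 or less lay above 0, from 0.05 to 0.54 with a median of 0.29. Of the 11 embryos of middle size 3 lay above 0 (-0.22 to 0.22, median -0.04), and of the 6 with size numbers of 10 or more 1 did (-0.33 to 0.08, median -0.15), which was embryo 07.

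Over the 25 embryos the score had Pearson's r = -0.80 with log2(size number) and Spearman's rho = -0.78. These describe a list chosen with earlier results known, by a rule that favours genes higher in small embryos, and carry no p. Leaving out the 2 embryos farthest from the median size gave r = -0.70 over 23. Within diets r was -0.85 over the 16 omega-3 embryos and -0.72 over the 9 omega-6 embryos, and over the 19 short embryos alone it was -0.77. With TMM scaling it was -0.72. All points share the same 41 genes and the same medians.

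Embryos 22 and 25 are set beside that relation as a description only. The rule puts every member at 2 times its median or more in both, so their scores had to lie well above the others. A least-squares line through the 25 others fell by 0.144 per doubling of the size number (SE 0.0223), with residuals from -0.20 to 0.26. It put embryo 22 at 0.10 and embryo 25 at 0.30. Their scores lay above the line by 1.17 and 0.81, and also above the 0.54 of embryo 14, the smallest.

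**Figure D4:**
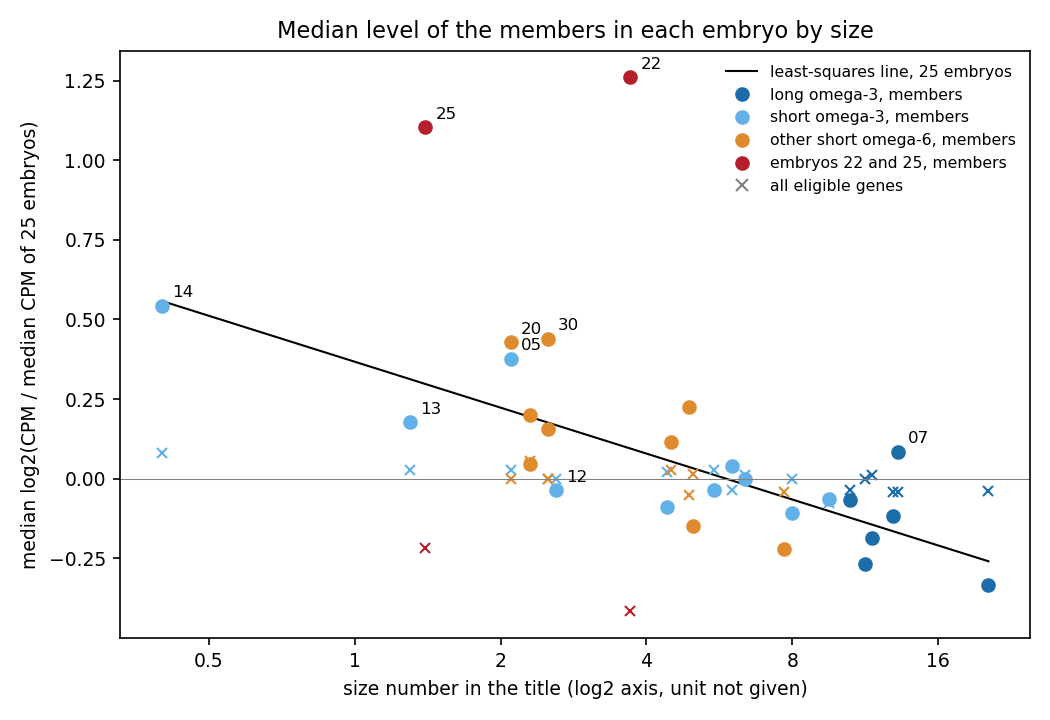
Median log2 ratio of the 41 members in each embryo (circles, coloured by group) against the size number on a log2 axis, with the line fitted to the 25 others. Crosses are the same median over all eligible genes. Embryos 22 and 25 lie at 1.26 and 1.10, far above the line, while their crosses lie at -0.42 and -0.22, below those of all other embryos.

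The fall with size was shared by nearly every member. The rule used slopes over all 27 embryos, where 40 of 41 were negative with a median of -0.18. Over the 25 others 40 were negative, from -0.28 to 0.43 with a median of -0.15 (log2(CPM + 1) per doubling of the size number). Among eligible genes, which passed the same slope filter, 59.5% were negative and the median was -0.02. The slopes over the 25 are not independent of the rule, which used these embryos among its 27. Its limit also favours genes that fall with size, so the excess of negative slopes is partly built in. Without embryo 14, 37 were negative with a median of -0.14.

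The same sign held in each diet. Slopes were negative for 39 members over the 16 omega-3 embryos, with a median of -0.11, and for 40 over the 9 other omega-6 embryos, with a median of -0.22. The 39 were negative in both diets, as were 45.8% of eligible genes. The difference between the medians of the diets was not tested. The remaining pair, chosen after their values were seen, were ENSBTAG00000037651, with slopes of 0.41 and 0.63, and ENSBTAG00000023384, with slopes of 0.01 in omega-3 and -0.19 in omega-6.

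The steepest falls over the 25 embryos were those of ENSBTAG00000006777 (-0.28) and ENSBTAG00000001032 (-0.26). ENSBTAG00000006777 was at 22.1 CPM in each of embryos 22 and 25. It ran from 6.82 through 8.98 to 9.24 CPM in long omega-3 embryos, from 9.03 through 10.5 to 23.4 CPM in short omega-3 embryos, and from 9.16 through 14.4 to 18.01 CPM in the other short omega-6 embryos. The smallest embryo, 14, was the highest of all 27 at 23.4 CPM, just above embryos 22 and 25.

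**Figure D5:**
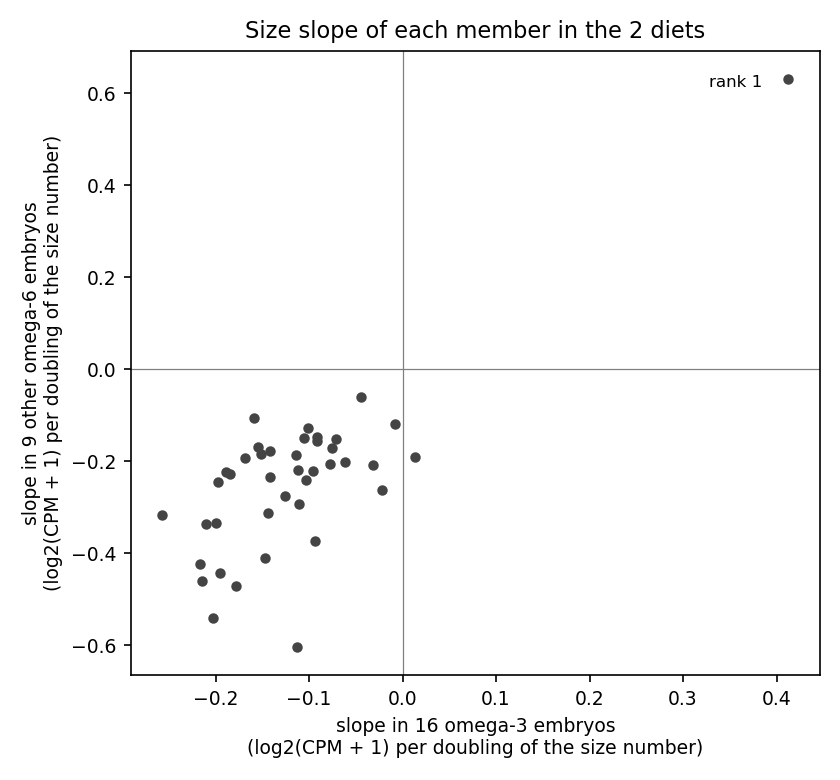
Size slope of each member over the 16 omega-3 embryos (horizontal) and the 9 other omega-6 embryos (vertical), in log2(CPM + 1) per doubling of the size number. Of the 41 points 39 lie in the lower left, negative in both diets, and rank 1, ENSBTAG00000037651, stands alone at 0.41 and 0.63.

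Members also rose and fell together among the 25 other embryos. Over the 820 pairs of members the median Spearman's rho was 0.54 and 94.8% were positive, against a median of 0.03 over all pairs of eligible genes. With each gene's size line taken out, the median was 0.35 against 0.02. The pairs share libraries and scaling. With TMM the medians were 0.51 as measured and 0.38 with the size line taken out. For 34 members the median rho with the other members was 0.4 or more. It was under 0.2 for ENSBTAG00000037651 (-0.26) and ENSBTAG00000023384 (0.15), which were chosen here by that value.

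Diet was tested in the 25 embryos other than 22 and 25, since the rule asked for high values in embryos 22 and 25. The rule used the 25 for its medians and size slopes, but not their diet or sex letter. The model held diet, log2(size number) and sex letter, and all 41 members were among the 11869 genes tested. By edgeR's quasi-likelihood test with Benjamini-Hochberg adjustment 0 members and 0 genes in all (0.0%) passed an adjusted p of 0.05. DESeq2 called 0 members and 1 gene, and limma-voom 0 of either. At an unadjusted p under 0.05 there were 2 of the 41 members, ENSBTAG00000006777 and ENSBTAG00000022825. That share is close to the 4.44% of all genes, so nothing is read from the count.

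Both were higher in omega-6. ENSBTAG00000006777 had a mean of 10.8 ± 3.96 CPM (SD, n = 16) in omega-3 and 14.2 ± 2.94 CPM (SD, n = 9) in omega-6 embryos. Its log2 fold change, omega-3 against omega-6, was -0.24 (SE 0.08, edgeR adjusted p = 0.995). ENSBTAG00000022825 had means of 69.8 ± 15.4 CPM (SD, n = 16) and 87.5 ± 16.03 CPM (SD, n = 9), and its log2 fold change was -0.22 by the same test (SE 0.08, edgeR adjusted p = 0.995). These means are not adjusted for size, and the omega-3 means include the long embryos, which have no omega-6 counterpart. Means in long and short omega-3 embryos were 8.41 and 12.3 CPM for ENSBTAG00000006777, and 56.2 and 77.9 CPM for ENSBTAG00000022825. The ranges of the diets overlapped for both genes. In the other direction the smallest p-values belonged to ENSBTAG00000006963 (0.12, SE 0.10) and ENSBTAG00000018040 (0.10, SE 0.09).

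Over all members the median log2 fold change for diet was -0.05, with 29 of 41 below 0, against 50.7% of all genes. Members rose and fell together among these embryos, so they are not 41 separate observations and nothing is read from that count. The median SE of a member was 0.11, so a diet difference of that order was not detectable here, and larger ones could also go uncalled. ENSBTAG00000006777, at -0.24 with an SE of 0.08, did not pass. With embryos 22 and 25 put back, all 41 fell below 0, with a median of -0.40, and 23 reached an unadjusted p under 0.05. That fit uses the values by which the members were chosen.

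Between embryos with m and f in their titles, 100 of the 11869 genes (0.843%) passed by edgeR's adjusted p and 0 members did. The lowest edgeR adjusted p of a member was 0.543. DESeq2 and limma-voom also called 0 members. At an unadjusted p under 0.05 there were 4 members, against 7.86% of all genes, each with the lower value in m: ENSBTAG00000015081 (-0.19, SE 0.08), ENSBTAG00000018040 (-0.19, SE 0.09), ENSBTAG00000009783 (-0.25, SE 0.11) and ENSBTAG00000019804 (-0.12, SE 0.06), as log2 fold changes. The last 2 were added after their values were seen. Without embryo 07, whose letter had been doubted in earlier results of these data, 0 members reached that p.

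In the other direction the smallest p-values were those of ENSBTAG00000020028 (0.61, SE 0.31) and ENSBTAG00000031082 (0.20, SE 0.10). The median over members was -0.06, with 28 of 41 below 0, against 49.0% of all genes. The count below 0 was 21 with limma-voom, 24 without embryo 07 and 12 with all 27 embryos, and 26 to 29 in the other settings. Members rose and fell together, so nothing is read from it. Embryo 22 carries the letter m and embryo 25 the letter f. The rule asked for high values in both, so a rise under both letters is fixed by the choice of embryos.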

How the data were processed

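RNA of 27 single embryos was sequenced from stranded, polyadenylated libraries as single reads of 100 bp, per the labels' protocols. The deposited files hold the authors' whole-number read counts per Ensembl gene, not normalised. The submitters' processing notes list STAR and featureCounts and no version of either. Genome build, annotation, strand setting and the handling of reads shared by near-identical genes were not given in the sources used here, so values of multicopy genes are uncertain.

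Groups came from the labels' diet and size class and from the titles. No batch or dam is labelled, and p-values cover only the spread among the embryos at hand. The 351 pairs of libraries differed by at least 13.6 chi-square per degree of freedom (median 68.3), so none was a copy.

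CPM was the count over the file total times 1000000. Slopes used log2(CPM + 1), a pseudocount of 1. Tests used edgeR 4.0.16 in R 4.3.3 with filterByExpr by group (a count of 10, a total of 15 and a proportion of 0.7 as minimums), TMM and the quasi-likelihood F-test, two-sided, with Benjamini-Hochberg adjustment over all genes tested. The diet model held log2(size number) and sex letter, and the sex model the same terms. The scripts were tested on simulated data. Alternatives were RLE scaling, no filter, DESeq2 1.42.0, limma 3.58.1 voom with quality weights, other limits and reference embryos, and left-out embryos. DESeq2 was run on the same deposited counts.

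The members and lists were chosen with earlier results of these data known. Identifiers named are the 2 members highest by the lower ratio, the highest by median CPM, the extremes of slope and the 2 smallest p-values in each direction of each test, with others marked as chosen after their values were seen. For want of gene names, the 10 gene lists and 6 marker lists drawn up were not analysed here.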

Additional observations from a re-analysis of the deposited data

Results flagged for a closer look

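Embryos that stood apart within their group were sought in 14 measures (the members' share of counts and the levels of the named members), or 42 groups of values. The highest or lowest embryo was separated from its neighbour by more than Dixon's 95% limit in 8 of them, where chance alone gives about 1 in 20 groups. Groups share embryos, so the 8 are not independent.

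The members' share of all counts was 0.484% in the long omega-3 embryo 07, against 0.420% in the next. The same embryo was highest in its group for ENSBTAG00000006963, at 856.9 CPM against 681.9 CPM. Embryo 01, the largest, was lowest of the long omega-3 embryos for ENSBTAG00000018040, at 4.37 CPM against 6.68 CPM, and highest for ENSBTAG00000031082, at 26.8 CPM against 16.8 CPM.

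Among short omega-3 embryos the smallest, number 14, was highest for ENSBTAG00000006777, at 23.4 CPM against 15.7 CPM. Embryo 02 was highest for ENSBTAG00000037651, at 42.0 CPM against 22.8 CPM. Embryo 05 was highest for ENSBTAG00000020028, at 14.4 CPM against 5.73 CPM, above embryos 22 and 25 at 12.8 and 8.85 CPM. Embryo 08 was highest for ENSBTAG00000009783, at 8.80 CPM against 6.57 CPM.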

How the results depend on the processing

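The number of members depended on scaling and on the limits. With TMM 222 genes and with RLE 229 met the rule, the 41 members among them under TMM. A limit of 1.5 times gave 580 genes and one of 3 times gave 1, and a median taken over the 9 other omega-6 embryos gave 20, of which 12 were members. Over the 19 other short embryos it gave 29, of which 24 were members. Slope limits of 0.25 and 0.5 gave 32 and 46 genes, and a median of at least 5 CPM gave 32. With slopes taken over the 25 other embryos 41 genes met the rule, of which 40 were members. ENSBTAG00000037651, with a slope of 0.43 there, was over the slope limit and dropped out. The median log2 ratio in embryo 22 was 1.66 with TMM and 1.69 with RLE. The median size slope was -0.12 with TMM, -0.11 in omega-3 and -0.22 in omega-6 embryos. The number of other embryos with at least 10% of the members at the limit, 1 as reported, was 0 with TMM, 0 with RLE and 4 at 1.5 times. Against the omega-6 median it was 0, but only omega-6 embryos were counted there. The embryo reported is a short omega-3 embryo, so that setting left it out and cannot show whether its rise depends on the reference. No other omega-6 embryo reached 10% against the median of the 25 either. With all 27 embryos 3 log2 fold changes turned: ENSBTAG00000006963 and ENSBTAG00000018040 for diet, to -0.28 and -0.24, and ENSBTAG00000009783 for sex letter, to 0.069. That fit adds the embryos that chose the members. Of 157 alternatives 3 turned the sign of a value and 22 moved it past the tolerance used. The other 132 could still change it, but within 1.5 times for a count, within 1 SD of the 9 other omega-6 embryos for a ratio, within 1 SE for the slope, and without a change of sign or of side of the threshold for a test. A slope without the highest-ranked member was added after seeing the data. Depth limits the members of few reads most, since the lowest count of a member in any of the 25 others was 15. No paired analysis was possible because embryo numbers do not repeat across groups.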
